A study of Drosophila melanogaster with 3 samples.

Results

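The limb and wing selector genes are 8 genes for transcription factors that give regions of the developing legs and wings their identity. They are *homothorax* (*hth*), *extradenticle* (*exd*), *teashirt* (*tsh*), *Distal-less* (*Dll*), *vestigial* (*vg*), *apterous* (*ap*), *spalt major* (*salm*) and *spalt-related* (*salr*). They were chosen by name, by no threshold on their values, and are 8 of the 13945 protein-coding genes annotated on the main chromosome arms. At each of them, peaks of a CG6163-eGFP fusion protein were counted within 500 bp of a transcript start, in the gene body, and within 20 kb of the gene. The peaks came from chromatin immunoprecipitation and sequencing (ChIP-seq), which finds the genomic sites where a protein is cross-linked to DNA. The 3 libraries were biological replicates of 1 group of *Drosophila melanogaster*, namely whole prepupae of the strain CG6163-GFP, in which an insertion targets CG6163. The exact prepupal age and the sex of the animals are not given in the labels. The antibody recognised GFP, and chromatin had been sheared by sonication to between 200 and 800 bp. The control experiment named in the labels was not analysed here. With 1 group and no contrast, no test could be run, and counts are set beside the same count over all genes. Whole animals mix all tissues, so these peaks cannot be assigned to legs, wings or any other organ, and peak lists hold no expression values against which the stage could be checked.

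In the limb primordia these genes act in particular domains, some of them shared and some opposed. *hth* and *exd* encode TALE homeodomain proteins that enter the nucleus together, act as partners of Hox proteins and, with the zinc-finger protein Teashirt, define the body wall and the proximal part of the appendages. *Dll* encodes the homeodomain protein of the distal limb. In the wing, *ap* encodes the LIM homeodomain protein of the dorsal compartment, *vg* the nuclear cofactor that makes tissue wing with its DNA-binding partner Scalloped, and *salm* and *salr* a neighbouring pair of zinc-finger proteins expressed in the central wing in response to Dpp. Legs and wings evert from the imaginal discs in prepupae.

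The sequences under the strongest summit of *tsh*, *salm* and *salr* and under the strongest summits of *hth* are shown. All 3 libraries had a peak at each of these sites. Summit windows of *Dll* and *vg* are not shown here. A summit is the base at which a peak is highest, and each window reaches 50 bp to either side of it, on the plus strand of dm6 as released by RefSeq. Capitals mark matches on either strand to the 10 motifs searched, which were GAGAG (the GAGA factor core), TATAAA (the TATA box), ATCGAT (part of the DREF site), TGATNNA (a core of Exd-Hox sites), TGACAG (Homothorax), TAATTA (many homeodomains), GGAATG (Scalloped), GATAAG (the GATA family), CACGTG (an E-box) and the run AAAAAA. The *hth* windows are chr3R:10617076-10617176, chr3R:10588859-10588959 and chr3R:10633989-10634089, all in introns. The *tsh* window is chr2L:21846546-21846646 in intergenic sequence downstream of the gene, the *salm* window is chr2L:11427792-11427892 in intergenic sequence downstream of the gene, and the *salr* window is chr2L:11387840-11387940 in an exon of a long non-coding RNA.
hth summit at 10617126: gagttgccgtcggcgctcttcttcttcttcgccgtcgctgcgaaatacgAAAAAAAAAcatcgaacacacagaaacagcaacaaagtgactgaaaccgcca
hth summit at 10588909: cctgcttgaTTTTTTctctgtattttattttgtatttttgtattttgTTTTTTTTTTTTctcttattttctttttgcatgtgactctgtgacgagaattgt
hth summit at 10634039: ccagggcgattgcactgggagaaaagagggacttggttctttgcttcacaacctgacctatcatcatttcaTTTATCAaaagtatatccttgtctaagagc
tsh summit at 21846596: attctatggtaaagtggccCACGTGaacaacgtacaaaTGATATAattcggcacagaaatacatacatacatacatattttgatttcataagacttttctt
salm summit at 11427842: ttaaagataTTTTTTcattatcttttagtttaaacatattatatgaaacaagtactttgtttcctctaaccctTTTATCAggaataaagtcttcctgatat
salr summit at 11387890: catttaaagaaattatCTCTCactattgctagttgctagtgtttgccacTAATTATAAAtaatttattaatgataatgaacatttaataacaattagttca
The *hth* windows at 10617126 and 10588909 hold runs of A or T, and the one at 10634039 holds 1 match to TGATNNA. The *tsh* window holds the E-box CACGTG and 1 match to TGATNNA. The *salm* window holds a T run and 1 match to TGATNNA. The *salr* window holds a GAGAG match and an overlapping pair of matches, to the homeodomain core TAATTA and to TATAAA. A match describes the letters of a window and not the binding of a factor.

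The 250 bp upstream of the transcript start are shown for the genes *hth*, *tsh* and *salm*, each of which had a conservative-list summit within 500 bp of that start. *Dll* and *vg* had one as well, and their windows are not shown here. They are given 5′ to 3′ in the direction of transcription, with the same capitals. The windows are chr3R:10614277-10614526 on the minus strand for *hth*, chr2L:21828343-21828592 on the plus strand for *tsh* and chr2L:11445615-11445864 on the minus strand for *salm*.
hth upstream: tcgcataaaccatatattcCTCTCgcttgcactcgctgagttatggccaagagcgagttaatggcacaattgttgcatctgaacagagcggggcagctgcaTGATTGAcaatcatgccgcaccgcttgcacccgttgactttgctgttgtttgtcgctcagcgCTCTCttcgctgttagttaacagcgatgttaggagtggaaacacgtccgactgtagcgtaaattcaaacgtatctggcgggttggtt
tsh upstream: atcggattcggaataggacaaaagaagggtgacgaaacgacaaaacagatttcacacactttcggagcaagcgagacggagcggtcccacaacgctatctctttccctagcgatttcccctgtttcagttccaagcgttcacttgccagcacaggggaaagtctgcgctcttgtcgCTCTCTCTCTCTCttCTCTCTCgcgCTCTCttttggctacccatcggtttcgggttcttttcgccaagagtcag
salm upstream: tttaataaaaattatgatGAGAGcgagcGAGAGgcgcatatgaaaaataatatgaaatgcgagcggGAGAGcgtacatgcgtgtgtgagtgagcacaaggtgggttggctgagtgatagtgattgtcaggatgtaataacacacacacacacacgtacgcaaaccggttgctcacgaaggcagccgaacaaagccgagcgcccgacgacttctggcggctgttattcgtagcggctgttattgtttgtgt
The 3 windows shown hold GAGAG, the core of GAGA factor sites, with 2 matches at *hth*, 8 at *tsh* and 3 at *salm*. Most of the *tsh* matches overlap one another in runs of CT. GAGAG was found in 29.1% of the 19253 windows of this length upstream of annotated starts. The *hth* window also holds TGATNNA, which 40.9% of such windows hold.

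The main set was the list that the authors deposited as conservative. It holds 10894 peaks with a median width of 370 bp, 10892 of them on the main arms. Peaks had been filtered by the irreproducible discovery rate (IDR), which is low for peaks that rank alike in the sets compared. All 10892 peaks stood at an IDR of at most 0.01 in 1 ranked list of the series. The intervals compared in that list were identical to ranked peaks of replicate 1 in 70.1% of cases and of replicate 2 in 70.5%, and to those of replicate 3 in 0.0%. The notes deposited with the libraries name all 3 as sources of the list. That the peaks came from comparing replicates 1 and 2 is an inference from these intervals, which no label states. If it holds, a match in replicate 3 is the more independent one. The thresholded lists of the replicates hold 7449, 7919 and 5843 peaks on the main arms. The ranked lists, which carry no threshold, hold 70459, 74056 and 84990. Signal is the authors' value per peak within 1 list, and ranks compare peaks of that list only.

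Of the 8 selector genes, 5 had a conservative summit within 500 bp of a transcript start, namely *Dll*, *vg*, *hth*, *tsh* and *salm*, beside 24.2% of all protein-coding genes. A summit in the gene body was found at 3 of 8, *hth*, *vg* and *tsh*, beside 18.7% of all genes. At *vg* and *tsh* it was the start summit itself, matched in 0 libraries, so only *hth* had body summits away from a start. All but *ap* and *exd* had a summit within 20 kb, which is 6 of 8 beside 85.3%. A start summit matched by thresholded peaks of all 3 libraries was found at *Dll* alone, 1 of 8 beside 12.1%. In the thresholded list of replicate 1, 4 of the 8 had a start peak (*Dll*, *hth*, *salm* and *salr*), beside 18.9% of all genes. In replicates 2 and 3 it was 1 of 8, *Dll*, beside 19.7% and 17.3%. So the promoter count of 5 rested on weak peaks at 4 of the genes, and *Dll* was the member whose start peak repeated.

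Within 20 kb the selector genes had 60 summits in all, 31 of them in gene bodies. Introns held 32, intergenic sequence 21, other exons 4 and 5′ UTRs 3, and none lay in a coding exon or a 3′ UTR. The number of libraries with an overlapping thresholded peak was 3 for 16 summits (26.7%, beside 40.3% of the whole list), 2 for 13, 1 for 14 and 0 for 17 (28.3%, beside 19.5%). Replicate 1 matched 36 of the 60 (60%, beside 64.6% of the whole list), replicate 2 matched 32 (53.3%, beside 67.9%) and replicate 3 matched 20 (33.3%, beside 49.8%). In the ranked lists 60, 60 and 57 had a match, beside 99.3%, 99.3% and 96.0% of the whole list. Their signal ran from 6.20 to 1288 with a median of 115, beside 140 over the whole list. The median was 79.3 for summits matched in 0 libraries, 105 in 1, 127 in 2 and 266 in 3, and over the whole list these medians were 86.0, 107, 141 and 269. The selector summits thus held fewer of the repeated, strong peaks than the list did, with 1 summit, at *Dll*, in the strongest 10% of the list and 9 in the strongest 25%. Of the 60, 27 (45.0%) had a q-value above 0.05, beside 33.7% of the list.

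**Figure D1:**
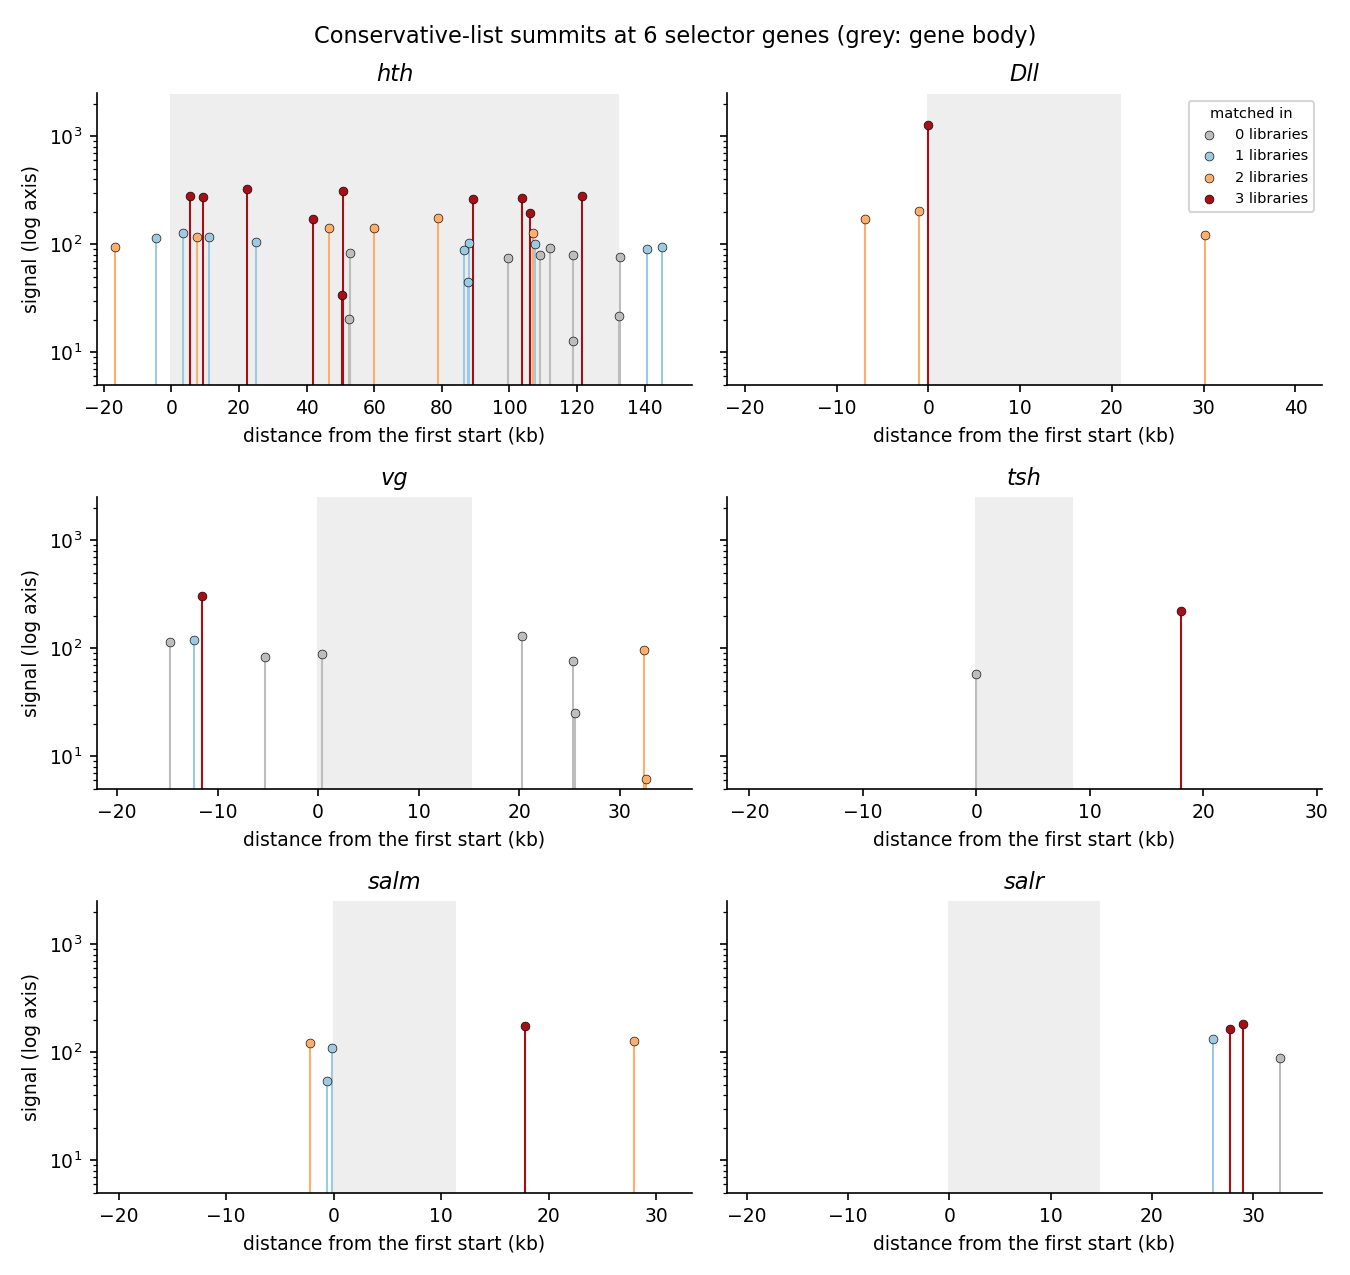
Conservative-list summits at the 6 selector genes that had any within 20 kb. The x axis is the distance in kb from the first transcript start in the direction of transcription, the y axis is the peak signal on a log axis, grey marks the gene body, and colour gives the number of libraries with an overlapping thresholded peak. *Dll* has 1 summit of 1288 at its start and none in its body, while *hth* has 29 summits over its body, the strongest at 325.

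*hth* held most of these peaks. The gene (FBgn0001235, chr3R:10507561-10639568, minus strand, 132 kb) had 29 summits in its body and 35 within 20 kb, and all 29 lay in introns. Among the 13945 genes, 4 had more summits in the body, and *hth* ranked 9 by the number within 20 kb. That rank rested in part on weak peaks, since among peaks matched in all 3 libraries *hth* had 10 within 20 kb and ranked 74. Because *hth* is long, it was also set beside the 83 genes of at least 100 kb, which had a median of 5 summits in the body. *hth* had 22 per 100 kb, the second highest density of these genes, whose median was 3.48 and highest value 27.3. The *hth* locus, with 20 kb on each side, carried 20.3 summits per 100 kb, beside 8.14 over the main arms. The other 7 loci together carried 6.65, below the main arms, and all 8 together carried 11.0.

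**Figure D2:**
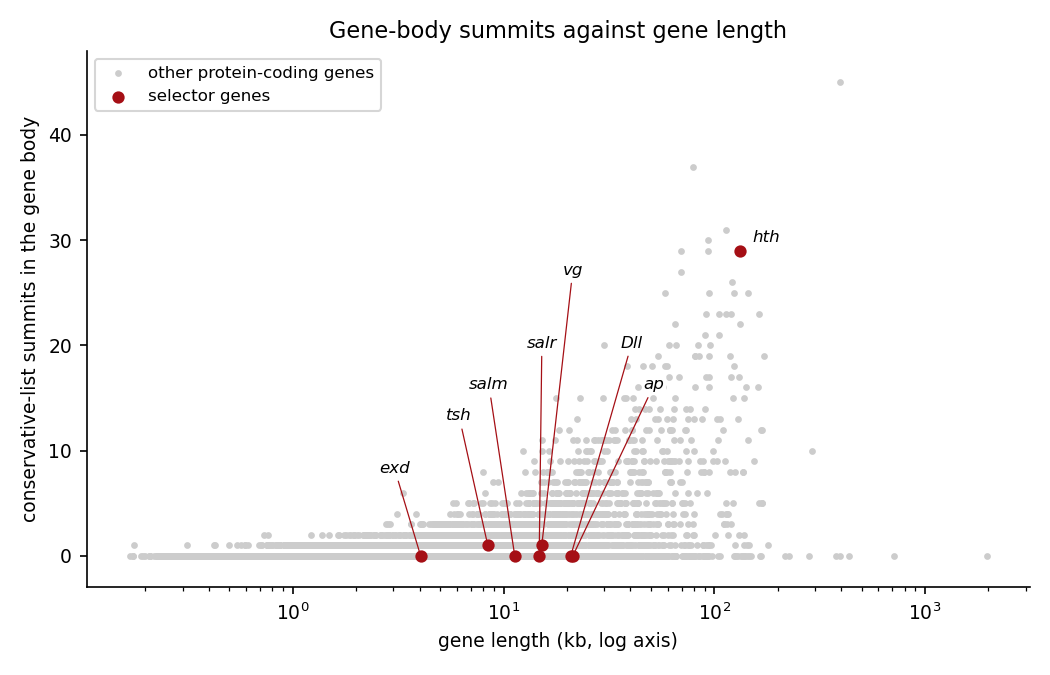
Conservative-list summits in the gene body (y axis) against gene length in kb on a log axis (x axis), 1 point for each of the 13945 protein-coding genes, with the 8 selector genes in red. *hth* stands at 29 summits and 132 kb, and the other 7 have 0 or 1.

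The thresholded lists of the libraries gave *hth* 21, 23 and 11 peaks within 20 kb in replicates 1, 2 and 3, which is 18.3 ± 6.43 (SD, n = 3). In the body they gave 17, 19 and 11, which is 15.7 ± 4.16 (SD, n = 3). Replicate 3 was the lowest of the libraries here, as in its total of peaks. The ranked lists gave 197, 199 and 202 peaks within 20 kb, with nearly the same number in every library. As a density, the ranked peaks of *hth* came to 115, 116 and 117 per 100 kb, beside 52.6, 55.3 and 63.5 over the main arms.

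The *hth* summits were spread over the introns with a median gap of 2387 bp between neighbours and a longest gap of 18971 bp. There were 4 gaps of at most 300 bp, and the neighbours there overlapped the same ranked peaks in replicates 1 and 2, so they are not separate sites by that measure. *hth* has a common start at 10614276, used by 4 annotated transcripts, and a distal one at 10639568, 25292 bp upstream, used by 1. Between the starts lay 7 of the body summits, and 22 lay downstream of the common start. Within 20 kb, 10 summits were matched in all 3 libraries, 6 in 2, 10 in 1 and 9 in 0. The 10 repeated ones were all in the body, with a median gap of 13070 bp. Of the 35, 18 had a q-value above 0.05.

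The strongest *hth* summit, at 10617126 (chr3R:10616941-10617310), lay in an intron, 2850 bp upstream of the common start. It had a signal of 325 and rank 1684 in the conservative list, and 127, 144 and 50.5 in the ranked lists of replicates 1, 2 and 3. It was the first *hth* peak in replicates 1 and 2 but the lowest in replicate 3 among the repeated *hth* summits. The summit at 10588909, 25367 bp downstream of the common start, had a signal of 315 and library signals of 109, 131 and 57.2. A twin at 10589168 with a signal of 33.9 overlapped the same library peaks.

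The summit at 10634039, 5529 bp downstream of the distal start, had 283, and 104, 106 and 77.8 in the libraries. In replicate 3 the highest *hth* signal was 92.7, at the summit of 10518048, 96228 bp downstream of the common start, where the conservative signal was 280 and replicates 1 and 2 had 98.4 and 106. The order of the *hth* summits therefore differed between replicate 3 and the other libraries. It also differed between replicates 1 and 2, in which the summit at 10550280 had 71.1 and 141. The summits at 10630196, 10535943 and 10550280, with conservative signals of 277, 267 and 265, were also matched in all 3. With the 4 described before, they make 7 of the 10 strongest summits of the selector genes. The *hth* promoter itself had a weaker summit. It lay at 10614514, 238 bp upstream of the common start, had a signal of 106 and rank 7478, with 50.9, 28.9 and 5.42 in the libraries, and passed the threshold in replicate 1 only. Replicate 3 had a separate ranked peak of 38.1 with its summit 24 bp downstream of that start. It ranked in the top 7.64% of its list, beside the top 7.95% for the peak of replicate 1. Its IDR was 0.0766, beside 0.00279 for the peak of replicate 1.

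*exd*, whose protein depends on Homothorax to enter the nucleus, had no such peaks. The gene (FBgn0000611, chrX:15992468-15996509, plus strand, 4.04 kb) had 0 conservative summits within 20 kb and 0 thresholded peaks in every library. The ranked lists gave 0, 5 and 5 peaks within 20 kb and 0 in the body. The strongest of them had a signal of 21.7 in replicate 2, 10864 bp upstream of the start, and 19.0 in replicate 3, 19199 bp upstream. The ranked density was 0, 11.4 and 11.4 per 100 kb, beside 58.0, 57.7 and 64.8 over the X chromosome. The nearest conservative summit lay 93333 bp away, near the start of *Tob*, with a signal of 55.9 and a match in 0 libraries. The partner genes *hth* and *exd* thus stood at opposite ends of the selector genes by number of conservative summits. *exd* shared its count of 0 with *ap*, and *hth* spans 132 kb beside 4.04 kb for *exd*.

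*tsh* (FBgn0003866, chr2L:21828593-21837011, plus strand, 8.42 kb) had 2 summits within 20 kb. The one at its start, at 21828596 in the 5′ UTR and 3 bp downstream of the start, had a signal of 58.4, which ranked 10001. Its library signals were 26.9, 38.2 and 4, and it passed the threshold in 0 libraries. Replicate 3 had 4 ranked peaks within 500 bp of the start, the strongest with 33.9 and a summit 277 bp downstream. The IDR of that strongest peak was 0.672. The other, at 21846596 (chr2L:21846513-21846646), lay 18003 bp downstream of the start, in intergenic sequence. It had a signal of 220 and library signals of 93.5, 81.4 and 64.5, and all 3 libraries matched it. Each library had exactly 1 thresholded peak within 20 kb of *tsh*, and it was this one.

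*Dll* had the strongest peak of the selector genes, at its promoter. The gene (FBgn0000157, chr2R:24814822-24835667, plus strand, 20.8 kb) has 3 annotated transcripts with 1 shared start. The summit at 24814718 (chr2R:24814545-24814914) lay 104 bp upstream of it, with a signal of 1288 and rank 125 in the conservative list. The ranked lists gave it 584, 444 and 233 in replicates 1, 2 and 3. Its rank there was 67, 160 and 329, which is the top 0.0951%, 0.216% and 0.387% of each list. The other summits near *Dll* were weaker. One at 24813829, 993 bp upstream, had 204 and matched in replicates 1 and 2. One at 24807933, 6889 bp upstream, had 172 and matched in replicates 2 and 3. The downstream one at 24844943 had 123 and matched in replicates 1 and 3. The *Dll* body held 0 conservative summits, and thresholded peaks numbered 0, 0 and 1 there. The ranked lists gave 63, 55 and 66 peaks within 20 kb, or 104, 90.4 and 108 per 100 kb, the second highest density of the selector genes in replicates 1 and 3.

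**Figure D3:**
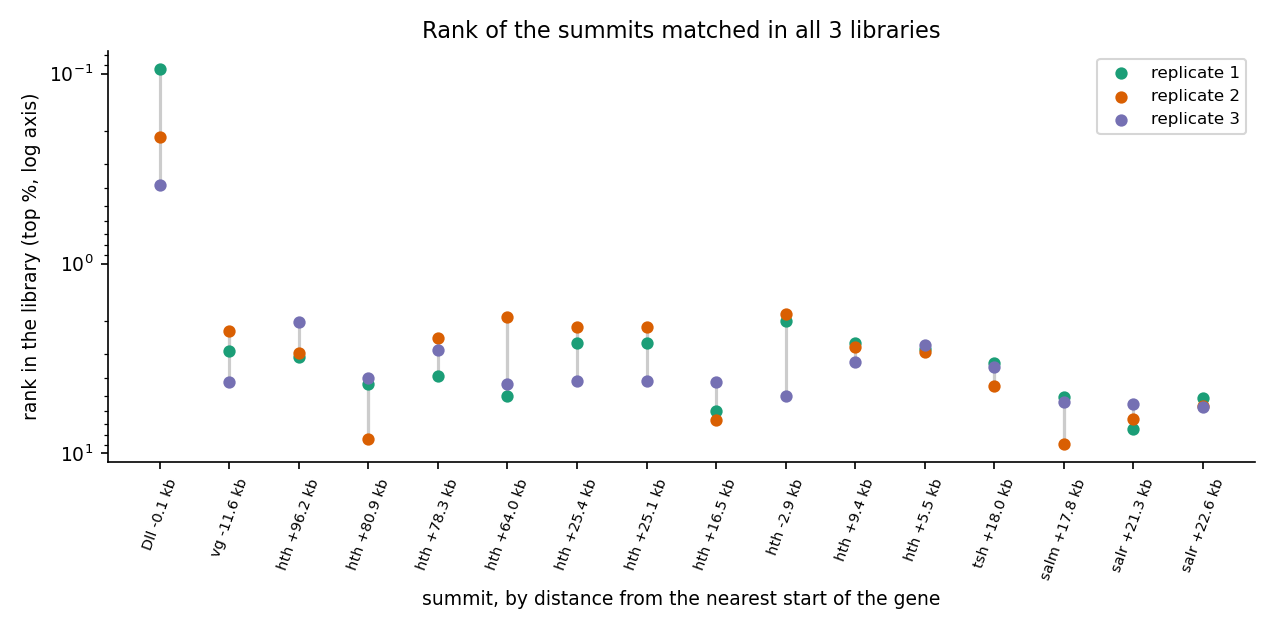
Rank, as the top percent of each library's ranked list on an inverted log axis (y axis), of the 16 selector summits matched in all 3 libraries (x axis, named by gene and distance from the nearest start of that gene). Points are the libraries and a line joins those of 1 summit. The *Dll* start summit lies at 0.0951% to 0.387%, and the others lie between 1.84% and 8.89%. The neighbouring *hth* summits about 25 kb downstream of the common start share their library peaks.

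At *vg* (FBgn0003975, chr2R:12884201-12899385, plus strand, 15.2 kb) there were 10 summits within 20 kb, a number that 9.32% of all genes reached. Their signal ran from 6.20 to 303 with a median of 92.6, and 1 was matched in all 3 libraries. That strongest summit, at 12872602 (chr2R:12872417-12872786), lay 11599 bp upstream of *vg* and 154 bp upstream of a start of asRNA:CR43469, an antisense RNA gene. It had 303, and 103, 126 and 56.8 in the libraries. The *vg* start summit at 12884578 lay in the 5′ UTR, 54 bp upstream of the second annotated start. Its signal was 88.4, with 24.8 and 41.0 in replicates 1 and 2 and no overlapping ranked peak in replicate 3, and it passed the threshold in 0 libraries. Several of the *vg* summits lay at other genes. The summits at 12869473, 12878878 and 12904485 were within 500 bp of the starts of *CG17574*, *Nmda1* and lncRNA:CR46336. A pair at 12916594 and 12916794 lay in an intron of *NAT1*. Its members overlapped the same ranked peaks in replicates 1 and 2, as did those of a pair at 12909544 and 12909794. Both members of each pair count in the 10 summits and so in the 9.32%, though they are not separate sites by that measure. Thresholded peaks within 20 kb of *vg* numbered 2, 3 and 1, which is 2.0 ± 1.0 (SD, n = 3).

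*ap* had none, like *exd*. The gene (FBgn0267978, chr2R:5706202-5727525, minus strand, 21.3 kb) had 0 conservative summits within 20 kb and 0 thresholded peaks in the 3 libraries. It also had 0 in the 3 other thresholded lists of the series, and so did *exd*. The ranked lists gave 4, 10 and 9 peaks within 20 kb. The strongest had signals of 23.0, 20.4 and 13.4, at IDR values of 0.113, 0.522 and 0.820. The ranked density at *ap* was 6.52, 16.3 and 14.7 per 100 kb, below the 52.6, 55.3 and 63.5 of the main arms in each library. The nearest conservative summit lay 27078 bp from the gene, 86 bp from the start of another gene, with a signal of 194. At both genes the shortage covered the unthresholded peaks as well.

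**Figure D4:**
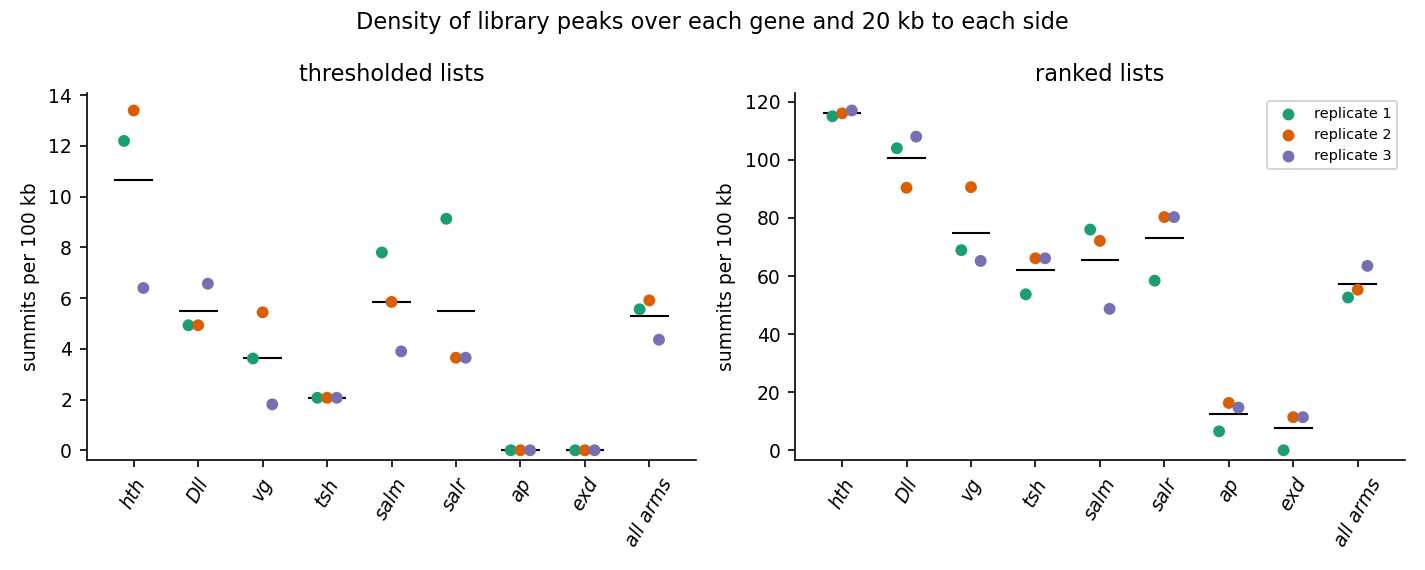
Library peaks per 100 kb (y axis) over each selector gene with 20 kb on each side and over all main arms (x axis), in the thresholded lists on the left and the ranked lists on the right. Points are the 3 replicates and the black line is their mean. *hth* lies at 115 to 117 in the ranked lists, *ap* at 6.52 to 16.3 and *exd* at 0 to 11.4, while the main arms lie at 52.6 to 63.5.

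The paralogs *salm* and *salr* had repeated peaks in the interval between them and none in their bodies. *salm* (FBgn0261648, chr2L:11434311-11445614, minus strand, 11.3 kb) had 5 summits within 20 kb with signals from 54.8 to 174, and *salr* (FBgn0000287, chr2L:11358873-11373636, plus strand, 14.8 kb) had 4 from 89.5 to 184. Their 3′ ends face each other across 60.7 kb, which held 7 summits, 3 of them matched in all 3 libraries. The main arms carried 8.14 summits per 100 kb, and 40.3% of the whole list was matched in all 3. An empty body is common, as 18.7% of all genes had a body summit. The *salm* start summit at 11445757, 143 bp upstream, had 111, with 50.3, 55.9 and 24.2 in the libraries, and passed the threshold in replicate 1 only. The summit at 11447861, with 123, lay 206 bp upstream of the start of lncRNA:CR46454, and one at 11446221 had 54.8.

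In the interval, the summit at 11427842 (chr2L:11427657-11428026), 17772 bp downstream of the *salm* start, had 174, and 70.5, 49.5 and 48 in the libraries. It was the strongest summit near *salm*. Nearer to *salr*, the summit at 11387890 (chr2L:11387705-11388074) lay in an exon of lncRNA:CR43681, 14254 bp beyond the *salr* gene. It had 184, with 69.9, 68.5 and 46.2 in the libraries. Its neighbour at 11386564 had 164, and 53.6, 61.1 and 47.2. The 3 repeated summits of the interval thus had signals between 164 and 184. A further one at 11395846, more than 20 kb from either gene, had 184 and matched in 2 libraries.

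The *salr* start differed between libraries. It had 0 conservative summits, but replicate 1 had a thresholded peak there, at chr2L:11358558-11358639, with its summit 288 bp upstream of the start. Its signal was 121, with rank 1514 of the 7449 thresholded peaks and an IDR of 1.12e-05. An overlapping peak with a summit 82 bp upstream had 3.39. Within 500 bp of a *salr* start, replicate 2 had ranked peaks of 12.4 and 14.6 and replicate 3 of 18 and 6, at IDR values from 0.495 to 0.820. The start peak was thus present in 1 library of 3, where it was the strongest peak within 20 kb of *salr*.

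Over the 60 summit windows, of 101 bp each, GAGAG was found in 25.0%, beside 16.3% of all 10892 windows of the list. TGATNNA was found in 25.0% beside 18.4%, TAATTA in 10% beside 6.36%, AAAAAA in 33.3% beside 29.1%, TATAAA in 13.3% beside 15.7% and GATAAG in 5.0% beside 4.87%. TGACAG, the core of Homothorax sites, and GGAATG, the core of Scalloped sites, were found in 1.67% each, beside 2.80% and 3.65%. ATCGAT and CACGTG were also found in 1.67%, beside 2.77% and 0.90%. Each of these 1.67% shares is 1 window of 60. The 35 *hth* windows held AAAAAA in 45.7% and GAGAG in 17.1%, and their median A and T content was 66.3%, beside 62.4% over the list. Neighbouring *hth* or *vg* summits that share library peaks count as separate windows here.

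Genes that work with the selectors were read from a list of 20 leg genes and a list of 25 wing genes. A start summit was found at 13 of the 20 leg genes (65.0%) and 15 of the 25 wing genes (60%), beside 24.2% of all protein-coding genes and 5 of the 8 selector genes (62.5%). Of the 28 listed genes with a start summit, 10 had it matched in all 3 libraries, beside 1 of the 5 selector genes and 1688 of the 3371 protein-coding genes with a start summit. A summit in the body was found at 31 of the 45, beside 18.7% of all genes, and one within 20 kb at 43 of the 45, beside 85.3%. The median number within 20 kb was 5, beside 4 for the selector genes and 4 for all genes. *B-H1* and *kni* were the listed genes without one. A longer gene has more room for body summits, and the listed genes ran from 2.41 kb (*Chi*) to 103 kb (*Antp*). They were not set beside genes of like length, so the body counts are not adjusted for length.

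The strongest start summit of these lists was at *bowl*, an Odd-skipped family gene of leg joints, with 1061. It was followed by *ct*, the homeodomain gene of the wing margin, with 411, *bi*, a T-box target of Dpp in the wing, with 265, and *btd*, an Sp-family gene of the leg primordium, with 220. *disco-r* (204), *Lim1* (194), *fng* (190) and *Bx* (189) came next, and all but *fng* were matched in all 3 libraries. *Dll*, with 1288, was above all of them. The start summits of *salm* (111), *hth* (106), *vg* (88.4) and *tsh* (58.4) lay among the lower values.

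Partners and regulators of the selectors varied. *sd*, which encodes Scalloped, the DNA-binding partner of Vestigial, had a start summit of 158 matched in all 3 libraries, where the *vg* start had 88.4 and no match. *Bx*, which encodes a LIM-only protein that competes with Apterous, had 2 start summits, both matched in all 3. *Chi*, whose protein binds Apterous, had none at its start and 3 within 20 kb, the strongest with 1169. *btd* had 220 at its start in all 3 libraries, while *Sp1*, which acts with it upstream of *Dll* in the leg, had 100 and a match in 1. *dac*, the gene of the intermediate leg, had 99.8 and a match in 1. *tio*, the paralog of *tsh*, had 98.7 and matches in 2. *nub*, a POU-domain gene of the wing pouch, had none at its start and 1 in its body, with 105 and a match in 0. The absence of peaks within 20 kb of *ap* was thus not shared by *Chi* and *Bx*. *Chi*, like *ap*, had 0 summits at its start and in its body. It differed from *ap* only within 20 kb, where 85.3% of all genes had a summit. Whether the *Chi* summit of 1169 lay at the start of another gene was not examined.

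**Figure D5:**
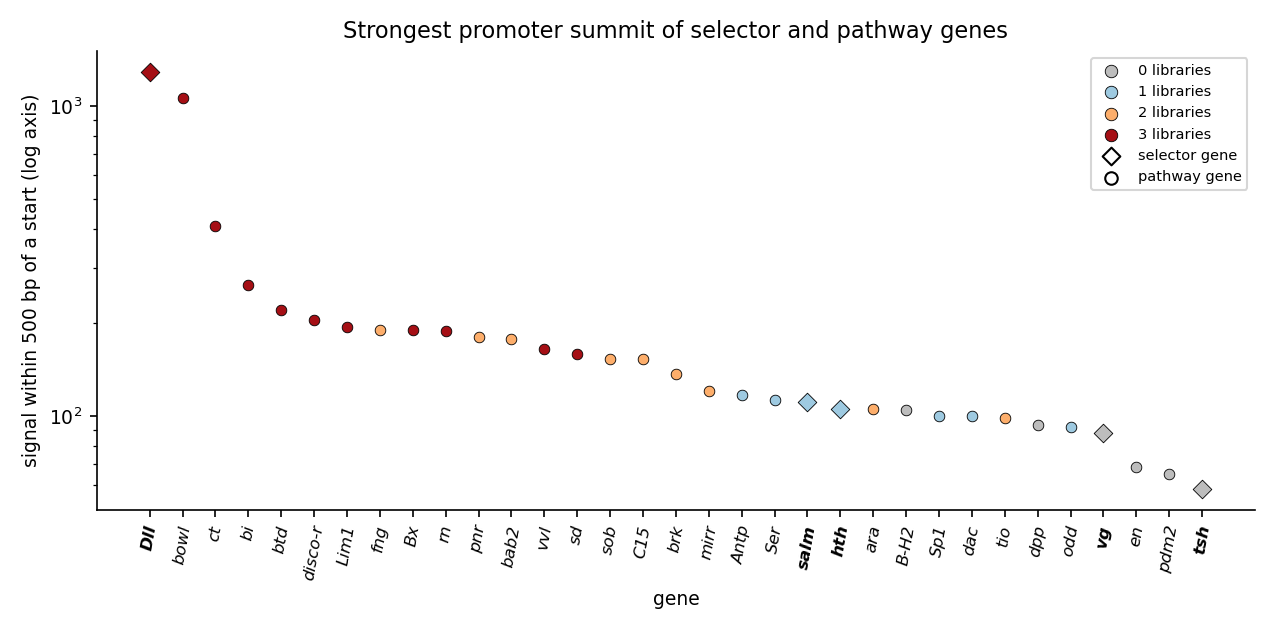
Signal of the strongest conservative summit within 500 bp of a start (y axis, log axis) for each selector gene (diamonds, bold names) and listed leg or wing gene (circles) that had one, ordered by signal, with colour for the number of libraries matched. *Dll* leads with 1288 and *bowl* follows with 1061, and *tsh* is the lowest with 58.4.

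By the pattern of 4 counts (summits at starts, in the body, within 20 kb, and within 20 kb matched in all 3 libraries), the genes most like *hth* outside these loci were *Hr4*, *Tet* and *SKIP*. Their distances on the log2(1 + count) scale were 0.615, 0.713 and 0.753. *Hr4*, a nuclear receptor gene of the ecdysone response, had 20 summits in a body of 66.0 kb. *Tet* had 30 in 93.0 kb and *SKIP* 23 in 162 kb. The genes most like *vg* were *stumps*, *Sec63* and *Ada2b*, at 0.126, 0.138 and 0.290, the last with 9 genes at the same distance. *salm* had the same 4 counts as 40 other genes, among them *CG12099*, *CG15025* and *CG15046*, so its counts were a common pattern.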

How the data were processed

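CG6163-eGFP was mapped by ChIP-seq in 3 libraries of whole prepupae. The deposited files are peak lists on dm6, per the labels. Which aligner and which caller made them is not given in the sources used here. Per peak, a score deposited by the authors rises as the IDR falls and is at least 830 in the thresholded lists. The signal of a peak is the authors' deposited value and was used within 1 list only. The −log10 q-value and −log10 IDR, deposited by the authors, served as filters. The summit, deposited by the authors as another value (an offset in bp), gave each peak's position. Depth is stated in peaks per list, since read numbers were not used here.

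Genes were taken from Ensembl release 115 and sequence from the RefSeq release of dm6. A conservative peak was matched in a library when a thresholded peak of that library overlapped it by at least 1 bp. Its signal there came from the overlapping ranked peak with the nearest summit. The selector genes, the leg and wing lists, the motifs and the alternatives were chosen with earlier results of these data known. The text names all 8 selector genes, their strongest summit in each zone, the 10 strongest of all, up to 8 listed genes by start signal, the partners *sd*, *Chi*, *Bx*, *tio*, *Sp1*, *btd*, *dac* and *nub*, and the 3 genes most like each of the 3 selector genes with most summits. Other summits, and *B-H1* and *kni*, were named after their values were seen. Alternatives changed the distances, the overlap, the peak list, the IDR and q-value limits, the annotation and the replicates. No test was run. The counting functions were tested on simulated data. The scripts ran on Python 3.11.15 with matplotlib 3.10.9, pandas 2.3.3 and NumPy 2.4.6.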

Additional observations from a re-analysis of the deposited data

How the results depend on the processing

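Of 88 alternative values, 40 stayed close to the value reported and 48 moved. Close means within 1.5 times for a count, and within the spread between libraries (1 SD) for the median signal (3.9%) and the density (27.3%). Not every value could move. The count of 16 summits matched in all 3 libraries was fixed when the list was limited to such peaks. Distances of 200 and 1000 bp from a start, a reach of 10 kb, the series list of 12445 peaks and the RefSeq annotation moved none of the values they were applied to. The selector genes with a start summit, 5 in the conservative list, numbered 1 in the series list of 8933 peaks and 2 in that of 9110, 2 with the IDR limited to 0.001, 2 with the q-value limited to 0.05, and 1 among peaks matched in all 3 libraries. *Dll* was the member left in the smallest of these. In the list of 12445 *salr* had a start summit and *tsh* did not. The 31 body summits became 17 in the list of 8933, 18 at the IDR limit, 16 at the q-value limit and 10 among peaks matched in all 3. The 60 within 20 kb became 92 within 50 kb, 37 in the list of 8933, 32 at the IDR limit, 33 at the q-value limit and 16 among peaks matched in all 3. The 16 summits matched in all 3 libraries became 30 within 50 kb and 10 with a reciprocal overlap of 50%. The median signal of 115 became 125 within 50 kb, 141 and 130 in the lists of 8933 and 9110, 173 at the IDR limit, 172 at the q-value limit, 123 with 1 peak per merged region and 266 among peaks matched in all 3. The density of 11.0 per 100 kb became 6.75 and 7.48 in these lists, 5.84 at the IDR limit, 6.02 at the q-value limit and 2.92 among peaks matched in all 3. The 28 leg and wing genes with a start summit became 17 at the IDR limit and 10 among peaks matched in all 3. Stricter lists hold fewer peaks by construction.

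Each replicate was left out in turn by keeping only the conservative-list peaks matched in both remaining libraries. The list was not remade, so its peaks and signals can still draw on the replicate left out. The start count was then 1 in every case, body summits 10 to 14 and summits within 20 kb 18 to 25. Matched summits were the same 18 to 25 by construction. The median signal was 184 to 243, the density 3.29 to 4.56 per 100 kb and the leg and wing genes 10 to 19. No paired analysis was possible because the samples form 1 group. *hth*, with 29 body summits and rank 5 among all genes, had 18 and rank 7 at the IDR limit, 16 and rank 13 at the q-value limit, 25 and rank 7 with merged regions, 10 and rank 16 among peaks matched in all 3, and 17 and rank 20 in the list of 8933. Within 20 kb its 35 summits and rank 9 became 20 and rank 21, 17 and rank 37, 30 and rank 12, 10 and rank 74, and 18 and rank 72 under the same settings, and 24 and rank 21 in the list of 9110. The number of peaks limits what can be seen at *ap*, *exd* and weak promoters, and a missing peak does not show that the protein was absent there.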

Other observations

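Some of the listed wing genes, picked after their values were seen, had a stronger summit within 20 kb than at their own start. Whether that summit lay at the start of another gene was not examined. *brk*, a repressor of Dpp targets, had 20 summits within 20 kb, 10 of them matched in all 3 libraries and the strongest with a signal of 940, while its strongest start summit had 137. *dpp*, which encodes the ligand, had 13 within 20 kb with a strongest signal of 1257 and 93.7 at its start. *ct* had 17, with a strongest signal of 1199 and 411 at its start.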
